A study of Mus musculus with 6 samples.

Results

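The lincRNA genes Gm42047, Gm47761, Gm43549, Gm48362, Gm12840, Gm20186, Gm4316 and Gm42031 each share long stretches of sequence with at least 1 other of them, and their counts were higher in exosomes of undifferentiated P19 cells than in exosomes of P19 neurons. These 8 genes were chosen by name on measured values: their counts in these libraries and the sequence they share. They have 12 transcripts among the 5880 non-coding transcripts of the deposited count table, whose identifiers were looked up in GENCODE mouse release M21 (5770 found). A 13th annotated transcript of these genes was not in the table. A further 1918 transcripts of the table are annotated as lincRNAs.

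P19 is a pluripotent embryonal carcinoma line of the mouse, and exosomes are small vesicles that cells release into their medium. Small RNA-seq libraries were made from exosomes of undifferentiated cells (UD-P19, replicates 1 to 3), kept in serum-free alpha-MEM with N2 supplement before the medium was collected, and of neurons (P19N, replicates 4 to 6), made by exposing P19 cells to retinoic acid for 4 days and growing them in neurobasal medium with B27 and N2 supplements. The medium of P19N was collected at 8, 10 and 12 days in culture, so that culture age and replicate cannot be told apart, nor can cell state and medium. Per the study's methods, proliferation in the P19N cultures was also blocked with 5-fluorouridine and uridine on days 3 and 8, which UD-P19 cells did not receive. The block on day 8 followed the collection of medium, so that replicate 4 had only the earlier one before collection. This treatment cannot be told apart from cell state either. Both groups come from 1 cell line, and only vesicle RNA was sequenced, so that fewer vesicles carrying an RNA and less of it per vesicle cannot be told apart.

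LincRNAs are long transcripts from loci between protein-coding genes, without a recognised protein product. Many contain sequence from dispersed repeats, among them endogenous retroviruses, whose terminal repeats stand at both ends of an element in the same orientation. A short read from sequence that several transcripts hold cannot be given to a single locus, and small RNA libraries sample fragments, not whole lincRNAs. The sources used here give no function for any of the 8 genes. Which repeat families their sequence belongs to was not analysed here.

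The 8 genes fell into 3 sequence groups, within which members shared at least 50 bases at 90% identity or more on the same strand, and between which they shared none. All 6 pairs of genes in the first group shared such a stretch. The first holds Gm42047, Gm47761, Gm43549 and Gm48362, the second Gm12840 and Gm20186, and the third Gm4316 and Gm42031. Some shared stretches ran across exon junctions, and in each group at least 1 junction stood at the same aligned base in copies of different genes, while others did not (the second junction of Gm42047-202 aligned 8 bases from the nearest one of Gm48362-201). Windows of 60 bases are shown for 1 such junction in each group, 5′ to 3′ on the transcript's strand from GENCODE M21 (GRCm38), with the downstream exon in capitals. The first set shows the junction that Gm42047, Gm47761 and Gm48362 share, and how Gm43549 joins the same downstream exon to another upstream exon, that of Gm47761-202, whose own junction goes on to a different exon:
Gm42047-202: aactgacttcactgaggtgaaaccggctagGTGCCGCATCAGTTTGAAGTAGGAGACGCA
Gm47761-201: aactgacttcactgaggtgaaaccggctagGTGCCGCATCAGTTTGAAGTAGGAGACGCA
Gm48362-201: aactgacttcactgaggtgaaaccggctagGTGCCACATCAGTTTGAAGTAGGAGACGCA
Gm43549-201: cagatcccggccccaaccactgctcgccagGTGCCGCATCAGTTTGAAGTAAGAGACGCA
Gm47761-202: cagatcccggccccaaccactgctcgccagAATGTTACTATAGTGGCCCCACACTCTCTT
The windows of Gm42047-202 and Gm47761-201 differed at 0 of 60 bases, although these genes lie on chromosomes 8 and 10, and that of Gm48362-201 differed from both at 1 base. Gm43549-201 differed from Gm42047-202 at 1 of the 30 bases after the junction and at 21 of the 30 before it. Its 30 bases before the junction differed at 0 from those of Gm47761-202.

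The second and the third group each have a junction of this kind, shown here as the only spliced position that both genes of a group share:
Gm12840-201: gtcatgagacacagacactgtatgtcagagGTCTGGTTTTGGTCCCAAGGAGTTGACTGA
Gm20186-201: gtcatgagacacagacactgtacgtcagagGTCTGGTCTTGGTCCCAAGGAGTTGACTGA
Gm4316-201: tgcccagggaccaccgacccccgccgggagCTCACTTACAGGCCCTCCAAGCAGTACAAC
Gm42031-201: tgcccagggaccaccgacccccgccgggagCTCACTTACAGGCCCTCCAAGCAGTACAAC
Gm12840-201 and Gm20186-201 differed at 2 of 60 bases, 1 on each side of the junction. Gm4316-201 and Gm42031-201 differed at 0 of 60, more alike here than over the 614 aligned bases around it, which were 92.3% identical.

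In the first group, Gm42047 (chr8:121833247-121841178, plus strand) has a transcript of 1 exon and 1862 bases, Gm42047-201 (ENSMUST00000212158.1), and one of 4 exons and 4988 bases, Gm42047-202 (ENSMUST00000212899.1). Like Gm47761-201, Gm42047-202 shared a stretch with every other transcript of the group. Bases 1 to 3204 of the 3205 of Gm48362-201 (chr9:25855315-25859652, minus strand) aligned to Gm42047-202 in a single block, at 98.4% identity over 3209 aligned positions. Gm43549-201 (chr3:55578105-55582730, minus strand, 2661 bases) aligned to it over 99.9% of its length, with 99.1% identity over 2508 bases. Gm47761 (chr10:17318085-17323228, minus strand) aligned in several blocks, which covered 81.8% of Gm47761-201 (3093 bases) and 49.4% of Gm47761-202 (1812 bases). The longest of these blocks was 1115 bases long at 99.3% identity. The second exon of Gm42047-202 and that of Gm47761-201 begin at the same aligned base, where the 30 bases after the junction differed at 0 and the 30 before it at 20.

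In the second group, Gm12840-201 (chr4:117700188-117700923, plus strand, 627 bases) aligned over its whole length to Gm20186-201 (737 bases), at 97.5% identity over 628 aligned positions. Gm20186 (chr6:18845910-18848207, minus strand) has 2 further transcripts in the table, Gm20186-202 (470 bases) and Gm20186-203 (741 bases), which use other first exons or an unspliced form. In the third group, 91.5% of the 1885 bases of Gm42031-201 (chr8:85125872-85132289, minus strand) aligned to Gm4316-201 (chr8:123165255-123173149, plus strand, 2617 bases). Gm42031-201 also repeats itself, its bases 48 to 604 returning as bases 1329 to 1885 with 100% identity. Gm4316-201 does so too, with bases 1 to 202 returning as bases 1344 to 1545 with 100% identity. The other 10 transcripts had no such internal repeat of at least 50 bases.

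**Figure D1:**
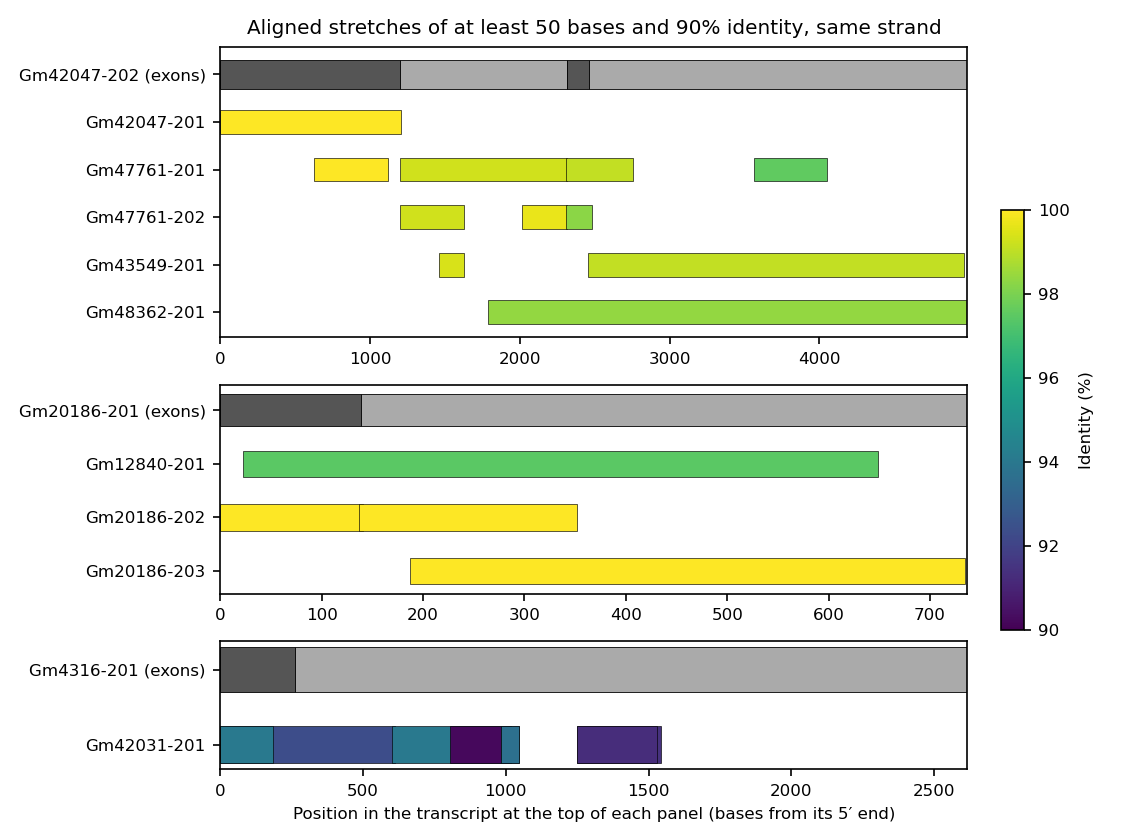
Stretches of at least 50 bases and 90% identity that the other members share with Gm42047-202, Gm20186-201 and Gm4316-201, in bases from the 5′ end of that transcript, with its exons as grey bars and the colour of a block giving its identity. Gm48362-201 and Gm43549-201 each follow the 3′ part of Gm42047-202 in 1 long block, while Gm47761 follows it in pieces. Gm43549-201 has a further block of 163 bases nearer to the 5′ end.

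By the annotation, Gm42047 and Gm4316 lie within the span of Gm20388, a protein-coding gene model on the same strand, and Gm47761 lies within that of the lincRNA Gm47760, also on the same strand. Gm20186 overlaps the lincRNA Gm26809 on the opposite strand. The nearest genes to the other members are Gm43548 at 832 bases from Gm43549, Zfp791 at 2777 from Gm42031, Dmap1 at 17915 from Gm12840 and Gm26190 at 42340 from Gm48362. In the RefSeq gene table (GRCm38.p6), 4 of the 8 genes were found. Gm43549, Gm4316 and Gm42031 are lncRNAs there, and Gm47761 is a pseudogene.

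The libraries held 454499 to 887460 counts each. Of these, 1 transcript, Gm42418, took 49.1% (replicate 2) to 65.9% (replicate 3) in UD-P19 and 16.3% to 18.2% in P19N. It is a lincRNA by annotation only, and which RNA its reads came from was not analysed here. Both non-coding marker lists were chosen with earlier results of these data known. The neuron list (9 of 11 in the table, led by Rian, an imprinted lncRNA) summed to 73 to 118 counts in P19N libraries. In UD-P19 replicates 1, 2 and 3 it summed to 11, 170 and 29. UD-P19 replicate 2 therefore went against its label on this list. The pluripotent list (6 of 14 in the table, most of its counts from Mir17hg, host of the miR-17 cluster) summed to 16 to 27 counts in UD-P19 and 3 to 6 in P19N libraries. Mir17hg alone had 23, 19 and 15 counts in UD-P19 and 5, 3 and 5 in P19N libraries, so that this list rests mainly on 1 gene. No listed marker in the table was at 0 over all 6 libraries. UD-P19 replicate 3, which stands out in the results that follow, had the lowest pluripotent sum of its group, and the part of these lists in the results was not tested.

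The members' counts were low in all libraries and made up 0.0354% to 0.133% of the counts in UD-P19 and 0.00451% to 0.00985% in P19N libraries. Summed over the 12 transcripts, there were 161, 307 and 1016 counts in UD-P19 replicates 1, 2 and 3 and 40, 59 and 58 in P19N replicates 4, 5 and 6. Scaled to counts per 1000000 (CPM) of the library size after edgeR's TMM normalization, the sums were 394, 363 and 1680 CPM in UD-P19 and 47.0, 77.8 and 80.7 CPM in P19N. The lowest UD-P19 library was above the highest P19N library, and UD-P19 replicate 3 stood apart from the other UD-P19 libraries. The group means were 811 ± 750 CPM (SD, n = 3) and 68.5 ± 18.7 CPM (SD, n = 3), 11.8-fold apart, or -3.57 on the log2 scale (P19N minus UD-P19). Without UD-P19 replicate 3 the difference was -2.66, and without UD-P19 replicate 2 it was -3.65. Because this contrast chose the genes, these values are a description and no test is given for them.

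Of 1286 transcripts with at least 15 counts over the 6 libraries, edgeR's quasi-likelihood test called 309, or 24.0%, at an adjusted p of at most 0.05, and 116, or 9.02%, were called and lower in P19N exosomes. Every UD-P19 value was above every P19N value in 216, or 16.8%. The number of calls depended on the libraries, with 199 of 1160 without P19N replicate 4 and 533 of 1145 without UD-P19 replicate 2. Without Gm42418, 15.3% were called lower. All 12 member transcripts passed the count filter, 12 were called lower and 12 did not overlap, and nothing is read from these counts because the genes were chosen on them. Their fitted log2 fold changes ran from -4.82 to -2.87 with a median of -3.33, beside a median of 0.21 over all tested transcripts. Among the 195 other lincRNA transcripts tested, 18 were called lower and 12 higher, and the median was -0.08.

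Gm42047, the gene with the most counts, had 24, 58 and 228 counts at Gm42047-202 in UD-P19 replicates 1, 2 and 3 and 6, 6 and 7 in P19N replicates 4, 5 and 6. At Gm42047-201 there were 17, 41 and 160 counts against 6, 7 and 10. At both transcripts each UD-P19 library was above each P19N library, and UD-P19 replicate 3 held 73.5% and 73.4% of the UD-P19 counts. In CPM, Gm42047-202 had 168 ± 181 (SD, n = 3) in UD-P19 and 8.24 ± 1.37 (SD, n = 3) in P19N exosomes, and the log2 fold change was -4.33, standard error 0.751. Gm42047-201 had 118 ± 127 and 10.1 ± 3.51 CPM (SD, n = 3 each), and the log2 fold change was -3.54, standard error 0.738. The UD-P19 SD exceeded the mean at both.

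The other members of the first group reached counts of 0 to 4 in P19N libraries. Gm47761-201 had 8, 22 and 68 counts in UD-P19 and 2, 2 and 0 in P19N libraries, and its log2 fold change was -4.82, standard error 0.898. Gm47761-202 had 8, 17 and 53 counts against 2, 2 and 1, and Gm43549-201 had 7, 18 and 61 against 1, 4 and 0. Gm48362-201 had 12, 18 and 41 counts against 1, 0 and 2. In all of these UD-P19 replicate 3 was the highest library, and no P19N library reached the lowest UD-P19 library. With so few P19N counts the size of the difference is loosely bound. Over the summed and scaled counts, the ratio of UD-P19 to P19N was 29.6 for Gm48362-201, with an exact 95% counting interval of 9.73 to 147, and 30.7 for Gm47761-201, with an interval of 11.6 to 115. For Gm47761-202 it was 19.5 (8.02 to 61.8) and for Gm43549-201 21.5 (8.87 to 68.0). These intervals cover counting error only, since reads are not independent molecules, and a count of 0 allows up to 3 counts, or 4.17 CPM in P19N replicate 6.

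In the second group, Gm12840-201 had 15, 22 and 96 counts in UD-P19 and 3, 6 and 10 in P19N libraries. Its CPM were 73.7 ± 73.6 and 8.45 ± 5.22 (SD, n = 3 each), and the log2 fold change was -3.12, standard error 0.751. The transcripts of Gm20186 lay close to it. Gm20186-201 had 12, 25 and 63 counts against 1, 9 and 6, Gm20186-202 had 17, 18 and 72 against 5, 5 and 7, and Gm20186-203 had 18, 37 and 79 against 5, 11 and 6. Within this sequence group, UD-P19 and P19N were closest in raw counts at Gm20186-201, where 12 in UD-P19 replicate 1 stood against 9 in P19N replicate 5. The log2 fold changes of Gm20186-201, Gm20186-202 and Gm20186-203 were -2.92, -3.01 and -2.91 (standard errors 0.742, 0.686 and 0.631).

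In the third group, Gm4316-201 had 13, 18 and 65 counts in UD-P19 and 5, 6 and 4 in P19N libraries, and its log2 fold change was -3.02, standard error 0.689. Gm42031-201, the member with the fewest counts, had 10, 13 and 30 against 3, 1 and 5, and its log2 fold change was -2.87, standard error 0.722. Both kept UD-P19 replicate 3 as the highest library, though for Gm42031-201 it was less far above the others.

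**Figure D2:**
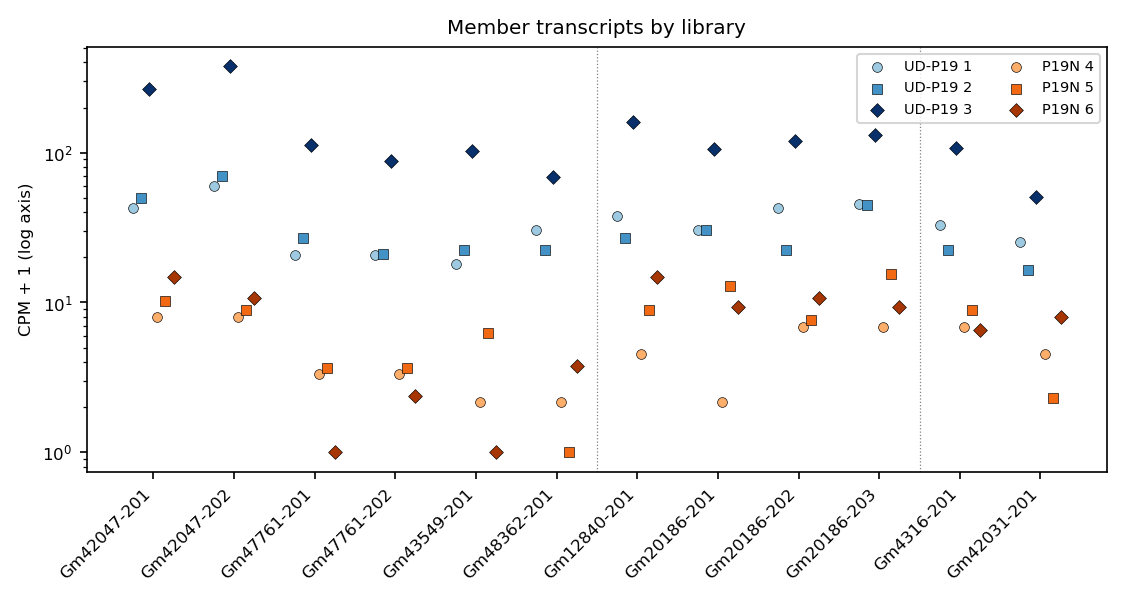
CPM of each member transcript in each library, plotted as CPM + 1 on a log axis, with dotted lines between the 3 sequence groups. The dark blue diamonds of UD-P19 replicate 3 are the highest point of every transcript, from 49.5 CPM at Gm42031-201 to 376 CPM at Gm42047-202.

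By sequence group, the summed CPM were 467 ± 469 in UD-P19 and 25.6 ± 3.82 in P19N exosomes for the first group, 18.3-fold apart (SD, n = 3). They were 261 ± 217 and 32.6 ± 14.0 for the second, 8.03-fold apart, and 83.3 ± 64.5 and 10.4 ± 1.85 for the third, 8.02-fold apart. Whether these folds differ between the sequence groups was not tested, since the same contrast chose the genes. Without UD-P19 replicate 3 the folds were 7.66, 4.18 and 4.48.

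Per kilobase of transcript, the scale on which levels can be compared between transcripts of unequal length, the second group was highest in UD-P19 exosomes on all counts. This order rests in part on reads that other transcripts also match. Gm20186-201 had 0 unique counts. In UD-P19, Gm42047-201 had 143 unique counts over 1862 bases and Gm20186-203 had 49 over 741, fewer for its length. Gm20186-202, with 67 unique counts over 470 bases, and Gm12840-201, with 68 over 627, had more for their length than Gm42047-201. Gm20186-202 had 129 ± 110 CPM per kilobase, Gm12840-201 118 ± 117, Gm20186-203 98.2 ± 67.4 and Gm20186-201 73.7 ± 58.4 (SD, n = 3 each). Gm42047-201 and Gm42047-202 followed with 63.4 ± 67.9 and 33.7 ± 36.2. Gm47761-202, Gm4316-201, Gm43549-201, Gm47761-201, Gm42031-201 and Gm48362-201 lay between 23.4 ± 21.6 and 12.3 ± 7.73. No neighbours in this order differed by more than their SD. In P19N exosomes the order was much the same at the top, with Gm20186-202 at 15.8 ± 4.37 and Gm12840-201 at 13.5 ± 8.32, and Gm48362-201 was again lowest at 0.412 ± 0.436.

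UD-P19 replicate 3 was the highest UD-P19 library at 12 of 12 member transcripts. Its CPM was between 2.48 times (Gm42031-201) and 5.91 times (Gm42047-202) the mean of replicates 1 and 2, with a median of 4.22. Over all tested transcripts with counts in replicates 1 or 2 the median of this ratio was 0.908, and over the other lincRNAs with such counts it was 0.694. Replicate 3 was the highest UD-P19 library at 42 of the 195 other lincRNA transcripts tested. A high replicate 3 was thus common to the members of the 3 sequence groups. Replicates 1 and 2 kept no common order, with 58.8 and 68.6 CPM at Gm42047-202 but 36.7 and 26 CPM at Gm12840-201. On unique counts, which leave out reads that other transcripts also match, the ratio was 5.30, 4.14 and 3.15 for the sums of the first, the second and the third group. The choice of the genes by a high UD-P19 mean favours transcripts with a high UD-P19 library, so no test is given.

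Of 6 fits that each left out 1 library, the one without UD-P19 replicate 3 gave the log2 fold change closest to 0 for 12 of 12 members, for example -2.05 at Gm12840-201, -2.37 at Gm42047-201 and -3.15 at Gm42047-202. Leaving out a P19N library moved members with few and with more P19N counts. Gm43549-201, with 5 P19N counts, moved from -4.33 to -6.07 without P19N replicate 5, its highest P19N library. Gm20186-203, with 22, moved from -2.91 to -3.53 without the same library.

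**Figure D3:**
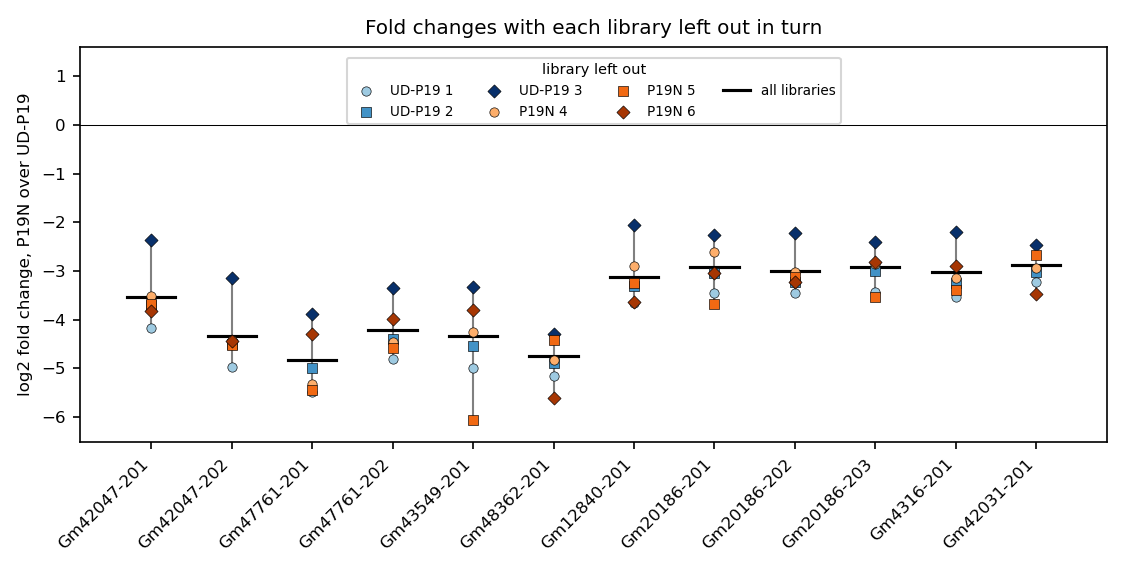
Fitted log2 fold change (P19N over UD-P19) of each member transcript with all libraries (black bar) and without 1 library each (points). All points lie below 0, between -6.07 and -2.05, and the dark blue diamonds, without UD-P19 replicate 3, lie nearest to 0.

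The deposited columns named unique and exact were taken to count reads that match 1 transcript only and reads that match with no mismatch. For unique counts this was checked on 355 transcripts whose whole sequence another transcript of the table also has, all of which had 0 unique counts, and for exact counts it was assumed. Of the members' counts, 35.4% to 37.1% were unique in UD-P19 and 35.0% to 50.0% in P19N libraries. Over whole libraries the unique share was 62.1% to 78.0% in UD-P19 and 32.1% to 38.5% in P19N, and without Gm42418 it was 25.6% to 35.6% and 18.9% to 24.8%. The exact share of the members was 60.9% to 67.4% in UD-P19 and 47.5% to 62.7% in P19N libraries.

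The unique share differed widely among the members. It was 66.0% at Gm42047-201, 64.0% at Gm4316-201 and 63.7% at Gm20186-202. It was 52.0% at Gm12840-201, 39.8% at Gm47761-202, 38.5% at Gm20186-203, 35.0% at Gm42047-202, 19.4% at Gm42031-201 and 10.8% at Gm48362-201. Gm47761-201, Gm43549-201 and Gm20186-201 had 0 unique counts among 102, 91 and 116 counts. Their counts therefore all came from reads that also matched another transcript, and at these totals a count of 0 allows a unique share of up to 2.9%, 3.3% and 2.6%. Among 194 other lincRNA transcripts with at least 15 counts, Gm42418 left out, 38 also had 0 unique counts, and their median unique share was 34.9%, beside 36.75% over the 12 members.

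This followed the sequence in part. Of all 30-base words in Gm47761-201, Gm20186-201 and Gm43549-201, 3.7%, 3.8% and 6.9% occurred in no other transcript of the table, the 3 lowest shares among the members. Gm4316-201 had the highest, 78.2%, with a unique share of 64.0%. Gm48362-201 had 572 such words among 3176, a larger share than the 12.2% of Gm42047-202, but the lower unique share of the pair, 10.8% against 35.0%. If the exact column is as assumed, reads with a mismatch are also matched, and a word found once need not give a unique read. Whether this accounts for the difference was not tested. Of the words of Gm20186-201, 47.2% occurred in no other gene, its own isoforms apart, and how many of its reads matched only this gene was not analysed here.

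Unique counts kept the direction of the group sums. In the first group they were 21, 66 and 208 in UD-P19 and 5, 7 and 8 in P19N libraries, 18-fold apart after scaling. In the second they were 22, 38 and 124 against 5, 12 and 17, or 6.69-fold, and in the third 14, 10 and 44 against 4, 7 and 4, or 6.09-fold. Without UD-P19 replicate 3 these folds were 7.40, 3.27 and 3.55. By gene, Gm42047-202 had unique counts of 7, 25 and 80 against 2, 0 and 1, and Gm42047-201 of 10, 28 and 105 against 3, 6 and 7. Gm12840-201 had 5, 9 and 54 against 1, 3 and 7. A fit on unique counts called 10.6% of 510 tested transcripts lower. It could test 7 of the 12 members and called 6 of them lower, all but Gm12840-201 (log2 fold change -2.62), and nothing is read from this count, since the contrast chose the genes.

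**Figure D4:**
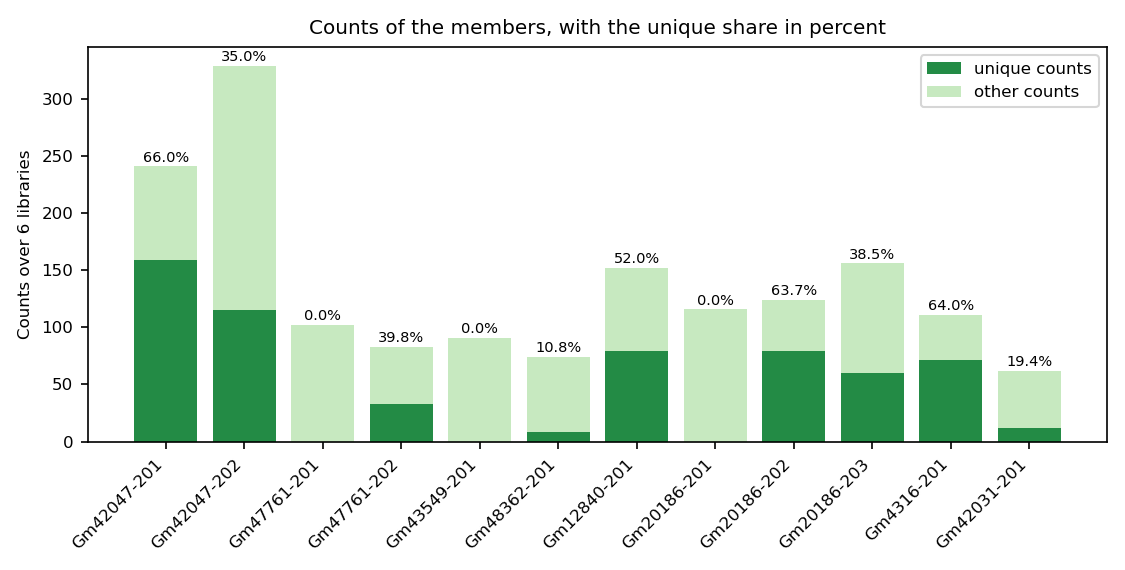
Counts of each member transcript summed over the 6 libraries, as stacked bars of unique (dark) and other (light) counts with the unique share above. Gm47761-201, Gm43549-201 and Gm20186-201 have 0.0% unique counts, and Gm42047-201 has the highest share, 66.0%.

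Exact matches made up 35.5% (Gm42031-201) to 79.3% (Gm42047-202) of a member's counts, with a median of 65.25% over the 12 transcripts. Over 194 other lincRNA transcripts with at least 15 counts, Gm42418 left out, the median was 36.5% and the range 0.0% to 94.4%. The first sequence group had the highest exact shares, 66.8% to 79.3%, and the second and the third lay between 35.5% and 63.7%. No test is given, because the transcripts of a group share reads. On exact counts 17.5% of 966 tested transcripts were called lower, and 11 of the 12 members were, from which nothing is read for the same reason as above. The exception was Gm42031-201, which had exact counts of 2, 6 and 9 against 1, 1 and 3 and a log2 fold change of -2.06.

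The strand could be checked at Gm20186, because Gm26809 holds the reverse complement of most of its transcripts, with 100% identity over 600 bases of Gm20186-201, all 470 of Gm20186-202 and 548 of the 741 of Gm20186-203. Gm26809 had 7 counts over all libraries, all unique, while Gm20186-201, Gm20186-202 and Gm20186-203 had 116, 124 and 156. Reads of this sequence were thus counted mostly on the strand of Gm20186. In the third group the counts of opposite-strand matches were mixed. Gm26880, which matches Gm42031-201 with 95.9% identity over 811 bases, had 2 counts, while Gm48681-201, which matches Gm4316-201 less closely over 492 bases, had 268, more than the 111 of Gm4316-201 itself. Gm48681-201 has 2263 bases, and its reads were not located within the stretch. No strand is therefore read from its count.

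Apart from the members, 27 transcripts of the table held a stretch of at least 50 bases at 90% identity with a member, 23 on the same and 4 on the opposite strand. Of these, 10 had enough counts to be tested, and edgeR's quasi-likelihood test called 6 lower and 1 higher in P19N exosomes, where 116 (9.02%) and 193 of all 1286 tested transcripts were called lower and higher. Because they share sequence with the members, their reads that are not unique can be shared with them and are not separate evidence. The part this can affect differed among them, since 398 of the 425 counts of Gm43305-201 were unique but 1 of the 85 of Gm47939-201. Nothing is read from these calls about the members. Nearest to the first group was Gm47939-201, a lincRNA at chr10:25899279-25903916 that is 99.5% identical to Gm43549-201 over 2659 bases. It had 5, 26 and 48 counts in UD-P19 and 4, 1 and 1 in P19N libraries, of which 1 was unique, and edgeR gave a log2 fold change of -3.93 (adjusted p = 0.00221). Gm46349-201 holds 526 bases of Gm42047-201 at 99.6% identity and had 2, 3 and 17 counts against 0, 0 and 1, of which 1 was unique (log2 fold change -4.34, adjusted p = 0.017 from the same edgeR test). Brip1os-201, which holds 567 bases of Gm43549-201 at 93.7% identity, had 4, 4 and 6 counts against 7, 8 and 0 and was not called.

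Nearest to the third group were transcripts whose counts were mostly unique. Gm43305-201 is 98.7% identical to Gm42031-201 over 748 bases, and 398 of its 425 counts were unique. It had 55, 71 and 230 counts in UD-P19 and 25, 25 and 19 in P19N libraries, and edgeR gave a log2 fold change of -2.74 (adjusted p = 0.00293). AI506816-205 is 91.8% identical to Gm42031-201 over 522 bases, with 16, 49 and 134 counts against 9, 15 and 15, of which 223 were unique (log2 fold change -2.63, adjusted p = 0.00863 from edgeR). AC102496.1-201 had 18, 14 and 44 counts against 2, 6 and 11 (log2 fold change -2.37, adjusted p = 0.0212 from edgeR). In all of these UD-P19 replicate 3 was the highest library, as in Gm4316 and Gm42031. Gm48681-201, which matches Gm4316-201 on the opposite strand with 90.8% identity over 492 bases, went the other way, with 12, 13 and 20 counts in UD-P19 and 98, 88 and 37 in P19N libraries. None of its 268 counts was exact, and it was called higher (log2 fold change 1.88, adjusted p = 0.0186 from edgeR).

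Next to the second group stood AC160336.1-201, a transcript of 93147 bases that is 91.2% identical to Gm20186-201 over 556 of them. It had 127, 560 and 420 counts in UD-P19 and 137, 152 and 143 in P19N libraries. Its log2 fold change was -1.57 (edgeR's adjusted p = 0.0126). The stretch is a small part of this transcript, and its reads were not located within it. The 2 remaining transcripts with matches to Gm42047-201, 4930509G22Rik-201 over 86 bases and Gm32856-201 over 87, were not called, with log2 fold changes of -0.47 and -1.26.

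Across all GENCODE M21 transcripts, and leaving out the 8 genes themselves, the number of genes that hold a member's stretch varied widely. Stretches of at least 100 bases at 90% identity on the same strand occurred in 9 other genes on 6 chromosomes for Gm42047-202, in 7 genes each for Gm43549-201 and Gm48362-201, in 9 for Gm42031-201 and in 20 genes on 13 chromosomes for Gm4316-201. Of the 20 genes of Gm4316-201, 6 are protein-coding. At a length of at least 500 bases there were 2 genes for Gm42047-202, 2 for Gm48362-201, 3 for Gm42031-201 and 1 for Gm4316-201, and 0 of these are protein-coding. For Gm12840-201 and each transcript of Gm20186 there was 1 other gene at 100 bases, a lincRNA, and for Gm42047-201 and Gm47761-202 there were 2. Copies outside annotated transcripts were not analysed here.

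The mean log2 CPM profile of the 12 transcripts over the 6 libraries was compared with 745 other tested transcripts of at least 60 counts. The most similar, with each family of near-identical transcripts taken once, were Gm43305-201 (Pearson r = 0.988), the miRNA gene model Gm47281-201 (0.984), the 5S rRNA copies n-R5s193-201 (0.984) and n-R5s127-201 (0.982), and AI506816-205 (0.970). Gm43305 and AI506816 share a stretch with the members, and the others do not. The correlation does not take in the size of the difference. The log2 fold change was -0.78 at n-R5s193-201 and between -2.74 (Gm43305-201) and -2.31 (n-R5s127-201) at the others. Gm47281-201 had 29, 53 and 92 counts in UD-P19 and 13, 13 and 9 in P19N libraries, and 0 of its 209 counts were unique. Among the 745 transcripts, 36 had r above 0.9. These correlations over 6 libraries are a description of profiles that share their libraries, scaling and depth, and that all follow the order of UD-P19 replicate 3 over the other UD-P19 libraries over P19N.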

How the data were processed

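The authors trimmed and merged read pairs, matched them with default parameters of CLC Genomics Workbench to mouse ncRNAs (GRCm38.p6), and deposited raw counts per transcript with unique and exact counts beside them. How a read matching several transcripts was counted is not given in the sources used here. Group means, fold changes and p-values of the authors' comparison (the submitters' processing notes name edgeR) are in the deposited table and were not used. Members and lists were chosen with earlier results of these data known.

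Transcripts with at least 15 counts were tested with edgeR 4.0.16 in R 4.3.3 (quasi-likelihood F test, TMM, no covariate, Benjamini-Hochberg adjustment over all 1286, calls at 0.05). On simulated counts with 200 of 1286 transcripts changed by a log2 fold change of 2, it recovered 73.5%, and 7.55% of calls were false. Sequences were compared with BLAST 2.17.0 (word size 11, 28 for all GENCODE transcripts). The text names the 8 genes, the 10 other transcripts with a shared stretch and the most counts, the 5 most similar profiles (log2 CPM, prior count 2), and overlapping or nearest genes. It also names opposite-strand matches, Gm42418 and marker genes, chosen after their values were seen. Alternatives were DESeq2 1.42.0 as test or for size factors, total counts only, leaving out Gm42418, other count filters, edgeR's exact test, unique or exact counts, each library left out, and other alignment limits. The 6 libraries come from separate exosome preparations, which the study calls biological replicates. Medium of P19N was collected repeatedly from day 8 on. Whether replicates 4 to 6 come from separate cultures is not given in the sources used here. Their SD may therefore not cover the spread between cultures. Python 3.11.15, pandas 2.3.3, numpy 2.4.6, scipy 1.17.1 and matplotlib 3.10.9 were used.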

Additional observations from a re-analysis of the deposited data

How the results depend on the processing

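All 12 members, chosen on this contrast, were called lower under the other scalings, filters and tests and with each library left out, in fits that called 2.55% (no count filter) to 15.3% (without Gm42418) of all tested transcripts lower, against 9.02%. On unique counts 6 of 7 testable members were called (10.6% of all tested), and on exact counts 11 of 12 (17.5%). Of 175 refitted member fold changes, 168 moved by less than the replicate SD, 7 by more and 0 changed sign; 4 of the 7 were without UD-P19 replicate 3. The summed log2 difference ranged from -3.80 (without Gm42418) to -3.03 (unique counts) under other settings and from -4.13 to -2.66 with 1 library left out. The count of 309 calls over all transcripts was 127 of 510 on unique counts, and with 1 library left out was lowest at 199 of 1160 without P19N replicate 4 and highest at 533 of 1145 without UD-P19 replicate 2; the cause was not tested. Of the calls, 62.5% were higher in P19N with TMM and 48.5% with DESeq2's size factors, with medians of 0.21 and 0.05 over all transcripts; with 1 library left out the share ran from 41.2% (UD-P19 replicate 1) to 71.7% (UD-P19 replicate 2) and was 44.7% without UD-P19 replicate 3 and 47.3% without P19N replicate 5. Gene pairs sharing a stretch numbered 8 of 28 at 90% identity and at least 30, 50 or 100 bases, and 7 at 50 bases and 95% identity, where Gm4316 and Gm42031 no longer paired because the limit applies to whole aligned blocks, the most identical of which was 94.05% identical over 185 bases. No paired analysis was possible because the groups share no replicate numbers. With 3 to 4 counts in all P19N libraries at Gm48362-201 and Gm47761-201, depth limits the size of their differences.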
